A study of Mus musculus with 4 samples.

Results

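Mouse fibroblasts cultured from embryos (MEFs) were compared between cells labelled NFAT5/TonEBP knockout and wild-type cells, both kept in isotonic medium. The comparison used 2 of the 4 arrays in the series. One array held RNA of wild-type cells and the other RNA of knockout-labelled cells after 20 hours in isotonic medium without synchronisation. The other 2 arrays held the same genotypes after 20 hours in medium brought to 450 mosmol/kg with NaCl, and they served as a separate reading of the genotype difference. RNA from 4 samples was pooled for each array, of the type Affymetrix Mouse Gene 1.0 ST. The labels give no strain, embryo, sex or passage, no knockout allele, and no word on whether each genotype came from more than 1 isolate of cells. The spread among the pooled samples was not seen, so no statistical test was made and all values describe these pools.

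The transcription factor NFAT5 (TonEBP) is related to the NFAT and NF-kappaB proteins. It turns on genes for osmolyte uptake and synthesis and for chaperones when the medium becomes hypertonic, and it has been linked to immune genes in isotonic medium too. MEFs are a mixed population whose Hox and other developmental transcription factor genes keep a record of the body region they came from.

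A signal is the deposited value of a probe set on the log2 scale, and a difference is the knockout-labelled signal minus the wild-type signal unless stated otherwise. Of 19938 genes with a probe set assigned to a single gene, 10191 were measured, meaning that their signal lay above the dim limit on at least 1 of the isotonic arrays. That limit is each array's middle signal over single-gene probe sets, 5.43 on the wild-type and 5.38 on the knockout-labelled isotonic array. Just inside that limit lay Col13a1 (signals 5.43 and 5.13) and L3mbtl1 (5.23 and 5.38), and just outside it Eva1a (5.05 and 5.38) and Asb7 (5.43 and 5.38). Signals below the limit mix background with expression, so a fold resting on one is poorly determined.

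The isotonic arrays read most genes alike. The median difference was 0.03 and 87.7% of measured genes lay within 0.5 of 0. At least 2-fold higher in the knockout-labelled cells were 162 genes, 1.59% of those measured, and at least 2-fold lower were 130, or 1.28%. In 100 of those read higher, and 73 of those read lower, neither signal was dim. At 1.5-fold the counts were 501 higher (4.92%) and 394 lower (3.87%). At least 4-fold differences were found for 22 genes in each direction. The nearest genes on either side of the 2-fold line were Ephx1 (signals 7.75 and 8.75, counted) and Trpv2 (5.19 and 6.19, not counted). Probe sets of the same gene gave differences with an SD of 0.18 over 615 genes with more than 1 measured probe set, which describes error within the arrays and not between cultures.

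**Figure D1:**
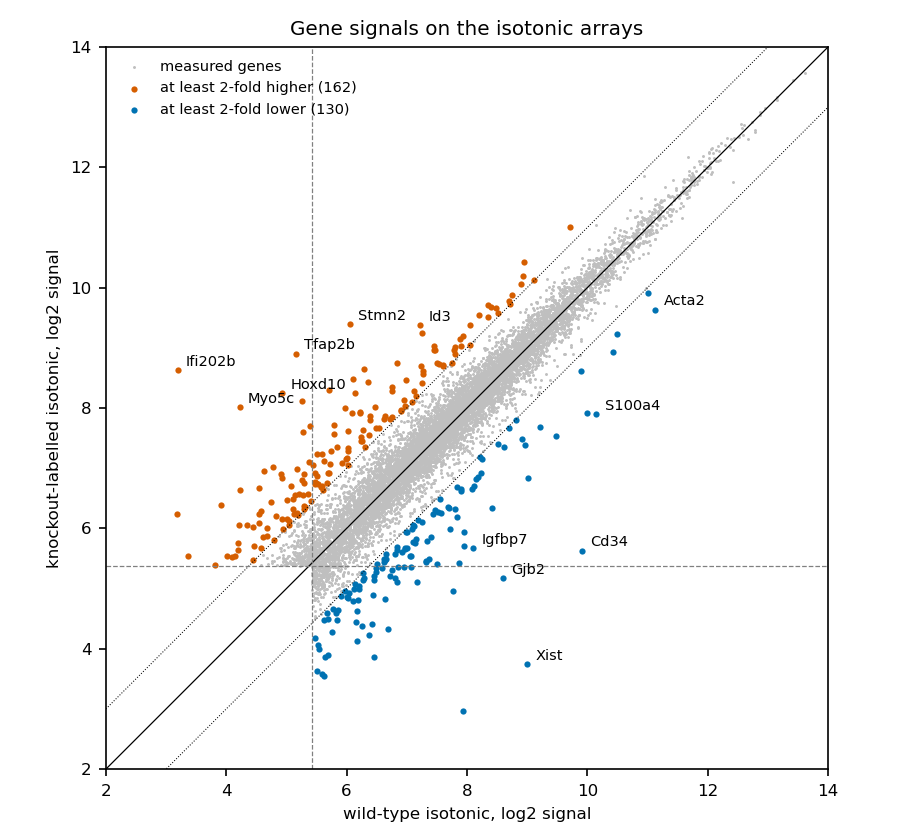
Signal of each measured gene on the wild-type isotonic array (x axis, log2) against the knockout-labelled isotonic array (y axis, log2), 1 pooled array each; dotted lines mark 2-fold and dashed lines the dim limits. The 162 higher and 130 lower genes lie outside the dotted lines, with Ifi202b and Xist farthest from the diagonal.

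The targeted gene did not set the arrays apart. Nfat5 read 7.74 in wild-type and 8.03 in knockout-labelled isotonic cells, and 8.19 and 8.24 in hypertonic cells. The deleted part of the gene is not given in the labels, and a probe set mostly outside a deletion does not check it, so the cells are called knockout-labelled here. Among the other NFAT genes, Nfatc3 read 8.56 in wild-type and 8.85 in knockout-labelled cells, Nfatc4 7.26 and 6.60, and Nfatc1 6.52 and 6.21. The 15 measured genes among the 10 places on each side of Nfat5 in the RefSeq order had differences from -0.54 (Nqo1) to 0.30 (Txnl4b), with a median of 0.00 and none past 2-fold.

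Genes of the tonicity response were mostly somewhat lower in the knockout-labelled cells in isotonic medium too. Of 24 listed osmolyte and tonicity genes with a probe set, 19 were measured, 7 were above 0 and 12 below, and the median was -0.30, beside 0.03 over all measured genes. Past 2-fold were Cryab, a small heat shock protein gene, which read 7.47 in wild-type and 6.30 in knockout-labelled cells, and Tnfrsf11b, encoding the decoy receptor osteoprotegerin, which read 5.70 and 6.92. Of the transporters, Slc5a3, for myo-inositol, read 8.23 and 7.42, and Slc6a6, for taurine, read 9.63 and 8.90. Slc6a9, for glycine, read 8.42 and 7.60, and the water channel gene Aqp1 9.20 and 8.27. These 4 genes were lower by 0.73 to 0.92, short of 2-fold. The betaine transporter gene Slc6a12 and Ranbp3l lay below the dim limit on both isotonic arrays, so no difference is read from them. In hypertonic medium the same list had a median difference of -0.62, with 10 of 21 measured members at least 2-fold lower. Of all genes measured in that pair 6.43% were at least 2-fold lower.

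Transcription factor genes of embryonic patterning were among the widest differences in both directions. In the list of lineage and positional factors 54 of 96 genes were measured, and 10 were at least 2-fold higher and 4 lower, 25.9% against 2.87% of all measured genes. The list's median was 0.22, and -0.07 without the filter on dim genes, so it gives no one direction. Tfap2b, an AP-2 factor of neural crest and limb, read 5.16 in wild-type and 8.91 in knockout-labelled cells in isotonic medium, and 5.04 and 9.01 in hypertonic medium. Its relative Tfap2a read 4.23 and 6.64, then 4.86 and 7.31. Sox2, a factor of stem cells and neural progenitors, read 5.25 and 8.12, then 5.35 and 8.59. In the hypertonic pair Tfap2b, Tfap2a and Sox2 differed by 3.96, 2.45 and 3.24. Of all 162 higher genes 65 were at least 2-fold higher there. Wild-type signals of Tfap2b, Tfap2a and Sox2 lay below the dim limit.

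Of the other higher factors, 6 lay above the dim limit on both isotonic arrays. Nr2f1, an orphan nuclear receptor, was higher by 1.92, the T-box gene Tbx20 by 1.73, Msx1 by 1.64, Foxc1 by 1.53, the LIM homeobox gene Lhx2 by 1.21 and Irx3 by 1.16. Sim2, a basic helix-loop-helix factor, was higher by 2.47 from a dim wild-type signal of 3.91. Outside the list, Sall1, a zinc finger factor of kidney and limb, was higher by 1.92, also from a dim wild-type signal (4.92).

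The factors of the list at least 2-fold lower were Foxf2, Meox2, Msx2 and Wt1. Foxf2, a forkhead factor of gut and palate mesenchyme, read 7.77 in wild-type and 4.96 in knockout-labelled cells. Meox2, a factor of somite and limb muscle, read 6.69 and 4.34, and Msx2, a homeobox factor of limb and skull, 7.31 and 5.45. Wt1, which marks mesothelium and kidney mesenchyme, read 5.63 and 4.48. Foxf2, Meox2 and Wt1 lay under the dim limit in the knockout-labelled cells. Msx1 and its paralog Msx2 thus differed in opposite directions, 1.64 and -1.86.

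Hox genes differed by cluster. Of 37 Hox genes with a probe set, 12 were measured, 4 were at least 2-fold higher and 1 was lower. Over all measured genes the shares were 1.59% higher and 1.28% lower. All 3 measured genes of the HoxD cluster were higher, though Hoxd10 had a dim wild-type signal and passed the filter through the knockout-labelled array. Hoxd10 read 4.93 in wild-type and 8.25 in knockout-labelled cells, Hoxd11 5.70 and 8.29, and Hoxd13 8.36 and 9.72. The hypertonic pair gave differences of 3.33, 2.62 and 1.11 for the same genes. Hoxd9 and Hoxd12 stayed under the dim limit but also read higher, 4.40 against 5.24 and 4.09 against 4.94, and Hoxd8 2.83 against 4.55, while Hoxd3 (3.93 and 3.92) and Hoxd4 (3.95 and 3.75) did not. The posterior HoxA gene Hoxa13, which patterns the distal limb and hindgut, was higher by 1.51, and by 0.49 in the hypertonic pair. The more anterior HoxA genes with measured signals, Hoxa4 to Hoxa11, differed by at most 0.39 in size (Hoxa9). In the HoxB cluster Hoxb9 was lower, 6.84 against 5.12, with a hypertonic difference of -0.76, and Hoxb6 read 5.84 and 5.36. Both Hoxb9 and Hoxb6 lay below the dim limit in knockout-labelled isotonic cells. None of the 9 HoxC genes was measured on either array.

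**Figure D2:**
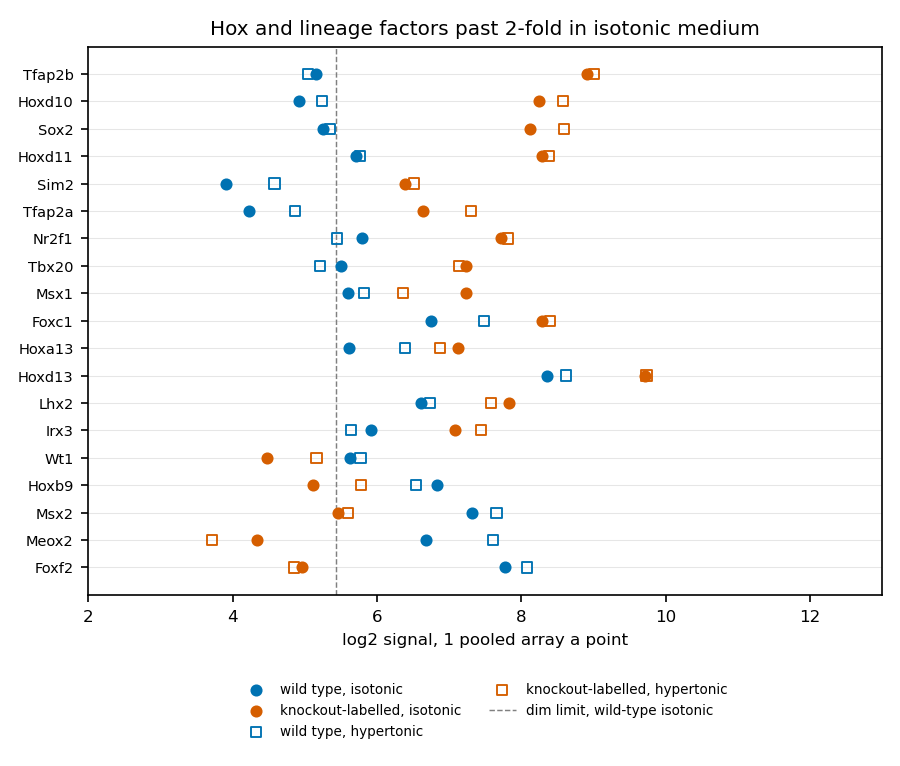
Log2 signal (x axis) of the 19 Hox and lineage factors past 2-fold in isotonic medium (y axis), 1 pooled array a point; filled circles are isotonic, open squares hypertonic, blue wild type and orange knockout-labelled. The isotonic circles of each gene lie at least 2-fold apart by the choice of genes, from Tfap2b (difference 3.74) to Foxf2 (-2.82).

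In isotonic medium the knockout-labelled cells had higher signals of interferon-stimulated genes. Type I interferon acts through its receptor and JAK kinases, and many antiviral genes that it turns on carry a shared DNA element in their promoters. Across 5 interferon lists, pooled after their values were seen, 70 of 112 genes were measured, 62 of them were above 0 and 25 were at least 2-fold higher, with none lower. The median signal of the 70 was 7.29 in wild-type and 8.13 in knockout-labelled isotonic cells, and their median difference was 0.73. In hypertonic medium the median signals were 7.83 in wild-type and 7.51 in knockout-labelled cells. The sign of the median genotype difference was thus opposite, at -0.23.

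The promoters of the higher interferon genes are shown because these genes read higher together and their known control element can be looked for by its letters. The interferon-stimulated response element was searched as GAAA, any 2 bases and GAAA again, on both strands of RefSeq promoters of build GRCm38.p6, which run from 250 bases before to 50 bases after a gene's start. Stretches of 100 bases before the start follow for 5 genes, 5′ to 3′ on the gene's strand, with the matched letters in capitals (TTTC, 2 bases and TTTC is the element on the opposite strand).
Ifi203: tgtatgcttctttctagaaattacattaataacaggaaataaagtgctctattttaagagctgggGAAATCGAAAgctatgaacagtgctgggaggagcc
Trim30a: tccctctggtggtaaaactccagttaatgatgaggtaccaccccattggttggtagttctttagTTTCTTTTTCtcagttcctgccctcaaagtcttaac
Gbp7: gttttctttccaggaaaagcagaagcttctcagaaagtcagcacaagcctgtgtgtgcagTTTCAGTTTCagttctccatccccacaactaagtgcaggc
Ifit3b: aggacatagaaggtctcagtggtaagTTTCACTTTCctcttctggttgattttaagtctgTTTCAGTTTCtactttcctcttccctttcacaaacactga
Oas1a: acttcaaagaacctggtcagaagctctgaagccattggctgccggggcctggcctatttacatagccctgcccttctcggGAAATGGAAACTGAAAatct
These stretches lie at chr1:173942493-173942592 for Ifi203, chr7:104465194-104465293 for Trim30a, chr3:142530223-142530322 for Gbp7, chr19:34607743-34607842 for Ifit3b and chr5:120907526-120907625 for Oas1a. Gbp7 and Ifit3b are on the plus strand and the other 3 on the minus strand. Ifit3b holds 2 separate matches, and in Oas1a 2 matches overlap. Stat2, with a hypertonic difference of 0.31, also had a match before its start, and its stretch is not printed.
The element was found in 8 of 19 promoters (42.1%) of the interferon members past 2-fold, of which 16 of 25 genes matched the promoter table. It was found in 14 of 48 promoters (29.2%) of the other measured interferon members. Counted by gene, the shares were closer, 7 of 16 (43.8%) and 14 of 37 (37.8%), against 3.99% of all genes with a promoter. Of all 32851 promoters 3.44% held it, as did 2.76% of those of higher genes outside the interferon lists and 1.89% of those of lower genes. A match describes the letters and does not show that a factor binds there.

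By role, the antiviral effectors held most of the differences, with 18 of 39 measured members at least 2-fold higher and a median of 0.93. Those 18 were 46.2% of the measured effectors, against 1.59% of all measured genes. Oas2, which makes the 2-5A signal that activates an RNase, read 5.97 in wild-type and 8.01 in knockout-labelled cells. Mx1, a GTPase that blocks viral replication, read 4.20 and 5.77, the first below the dim limit. Usp18, which removes ISG15 from proteins and dampens receptor signalling, read 7.94 and 9.20. Ddx58, the cytosolic RNA sensor RIG-I, read 8.76 and 9.88. Rtp4, Samd9l, Parp12, Parp14, Dtx3l and the ubiquitin ligase gene Trim25 were higher by 1.13 to 1.46. Of these 10 genes Mx1 alone had a wild-type isotonic signal below the dim limit. Sp100 (4.34 and 6.06) and Oas1b (5.18 and 6.25), further effectors past 2-fold, also had dim wild-type signals.

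Among regulators, Irf7, the factor that amplifies interferon production, was higher by 1.34 and Stat2 by 1.12. Irf9, the partner of Stat2, was higher by 0.70, short of 2-fold, and Irf3, which starts the response, differed by -0.07. Of the guanylate-binding and related GTPases 5 of 9 with a probe set were measured, and Gbp9 (1.63), Iigp1 (1.56) and Gbp7 (1.17) were past 2-fold. Gbp9 and Iigp1 had dim wild-type signals, 5.08 and 3.82, and passed the filter through the knockout-labelled array. Gbp5 was dim on both arrays, 3.28 and 3.17. In the list of antigen presentation by MHC class I 12 of 14 measured members were above 0, against 54.8% of all measured genes. This list differed less, with a median of 0.38 and none past 2-fold. Its largest members were Psmb8, an immunoproteasome subunit gene (0.99), the peptide transporter gene Tap1 (0.78) and the proteasome activator gene Psme2 (0.61), and B2m, the light chain gene, read 0.60.

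In the list of interferon ligands, receptors and sensors no member passed 2-fold. Ddx58, Irf7 and Stat2, named above as past 2-fold, were counted in other lists. The interferon genes Ifnb1, Ifna4 and Ifng lay below the dim limit on both isotonic arrays, at 2.88 and 2.91 for Ifnb1. The receptor chains Ifnar1 (0.21) and Ifnar2 (0.36) and the kinase genes Jak1 (0.30) and Tyk2 (-0.14) differed little. Above 0 were 14 of 17 measured members of that list, against 54.8% of all measured genes.

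The interferon-inducible Ifi200 genes encode DNA-sensing and growth-regulating nuclear proteins. Ifi202b had the widest difference of all measured genes, reading 3.19 in wild-type and 8.63 in knockout-labelled isotonic cells, and 2.81 and 7.32 in hypertonic cells. It was the 1 interferon member of the 25 that was at least 2-fold higher in both media. Ifi203 read 4.54 and 6.68 in isotonic medium but 5.55 and 5.06 in hypertonic medium. The other 7 family members with a probe set, among them Aim2 (3.95 and 4.61) and Ifi205 (4.32 and 3.73), lay below the dim limit. Genes of this family are near-identical in part, and reads of one on another's probes were not tested.

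**Figure D3:**
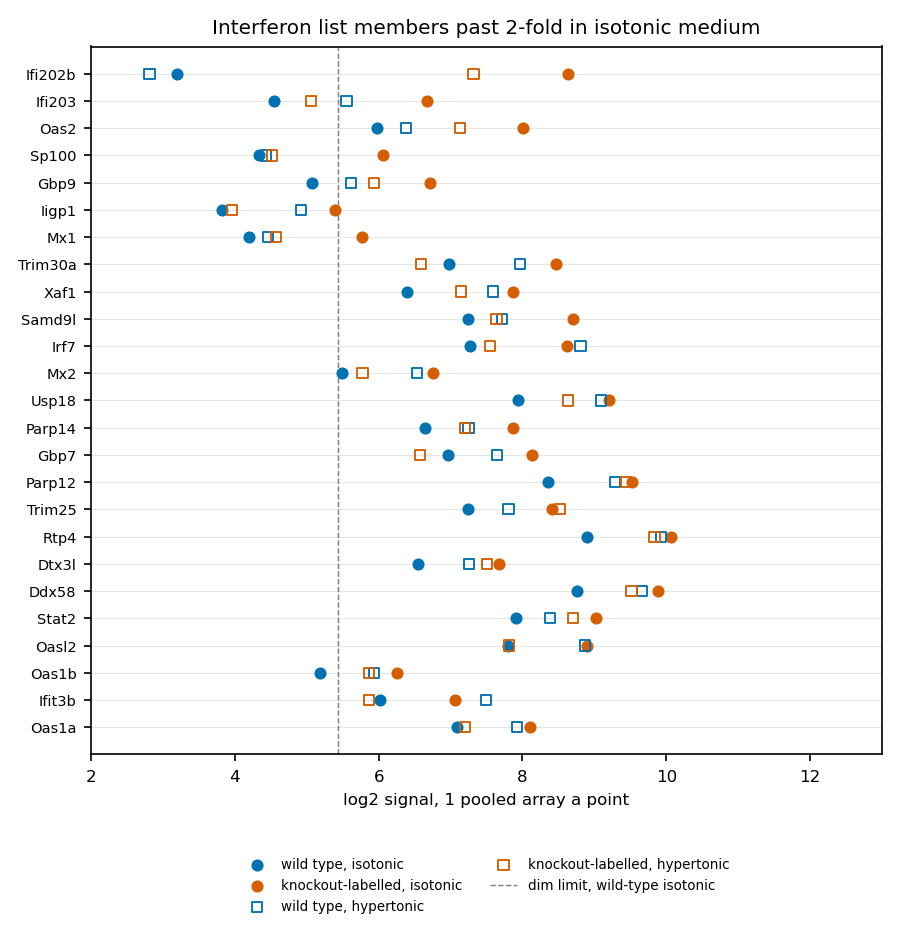
Log2 signal (x axis) of the 25 interferon list members past 2-fold in isotonic medium (y axis), 1 pooled array a point; filled circles are isotonic, open squares hypertonic, blue wild type and orange knockout-labelled. In isotonic medium every orange circle lies right of the blue one, while among the hypertonic squares 16 of the 25 genes have the orange one to the left, against 38 of all 162 higher genes with the opposite sign there.

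Genes of the extracellular matrix were lower. Across collagens, proteoglycans and matrix glycoproteins, also pooled after their values were seen, 68 of 89 genes were measured, 13 were above 0, 13 were at least 2-fold lower and 1, Omd, was higher. Their median difference was -0.31, against 0.03 over all measured genes. Of all measured genes 54.8% were above 0 and 1.28% at least 2-fold lower. Of the 13 lower genes 11 were at least 2-fold lower in hypertonic medium too, and the exceptions were Ccn2 (0.84 there) and Gpc6 (-0.92). Of 24 measured collagen chains 2 were above 0, and the median was -0.32. Col1a2, a chain of type I collagen, read 12.06 and 11.88 and Col1a1 12.43 and 11.76. Of the type V chains, Col5a2 read 10.23 and 10.27, Col5a1 8.21 and 7.77 and Col5a3 6.26 and 5.53. Col11a1, a minor fibril chain, was the 1 collagen past 2-fold, 6.48 against 5.34.

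The medians of proteoglycans (-0.26) and glycoproteins (-0.31) were close to that of collagens (-0.32), but more members passed 2-fold: 5 of 14 proteoglycans and 7 of 30 glycoproteins were lower, against 1 of 24 collagens. Vcan, encoding the large proteoglycan versican, read 7.71 in wild-type and 5.99 in knockout-labelled cells. The small leucine-rich protein genes split: Aspn read 8.91 and 7.48, Fmod 5.53 and 4.07, and Bgn 11.01 and 9.91, while Omd read 4.46 and 5.70 and Ogn 6.92 and 7.51. Ltbp2, which binds elastic microfibrils, read 7.86 and 5.42, the widest difference of the group. Fbln2 read 10.43 and 8.94, Mfap5 7.80 and 6.33 and Fbn2 8.12 and 6.70, whereas the related Efemp1 (8.05 and 8.75) and Fbln1 (7.03 and 7.59) read higher, short of 2-fold, and Eln, encoding elastin, was dim on both arrays. Lama4, a laminin chain, differed by -1.51 and Tnc, encoding tenascin C, by -1.27. The matrix proteases split, with the gelatinase gene Mmp2 lower, 8.23 against 6.92, and the stromelysin gene Mmp3 higher, 4.19 against 5.63 from below the dim limit.

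Of 15 measured mesenchymal surface markers 3 were at least 2-fold lower, 1 was higher and 4 were above 0, among them Vcam1 (0.27) and Itgb1 (0.14). Past 2-fold either way were 26.7% of these markers, against 2.87% of all measured genes. Cd34, a surface sialomucin of blood and mesenchymal progenitors, read 9.91 in wild-type and 5.63 in knockout-labelled isotonic cells, and 10.32 and 4.97 in hypertonic cells. Thy1 read 7.34 and 5.79, and the adhesion receptor gene Alcam 7.84 and 6.19, whereas Nt5e read 4.14 and 5.54. Of 15 smooth muscle contractile genes 8 were measured, and 3 of those were at least 2-fold lower, 37.5% against 1.28% of all measured genes. Tagln, an actin-binding protein gene, read 9.99 and 7.91, smooth muscle actin (Acta2) 11.13 and 9.64, and calponin (Cnn1) 6.44 and 4.90. Cnn1 lay under the dim limit in the knockout-labelled cells. Tpm1 (11.45 and 11.46) and Cald1 (10.15 and 9.94), which most contractile cells share, differed little. S100a4, a calcium-binding protein gene of motile fibroblasts, read 10.15 and 7.91.

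Insulin-like growth factor binding protein genes split by member. Igfbp7 read 8.11 in wild-type and 5.67 in knockout-labelled cells and Igfbp5 6.42 and 4.41, while Igfbp4 (7.41 and 7.35) and Igfbp6 (9.02 and 8.70) differed by less than 0.5. Igf1 read 5.50 and 5.24, and the receptor gene Igf1r 8.11 and 7.72.

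**Figure D4:**
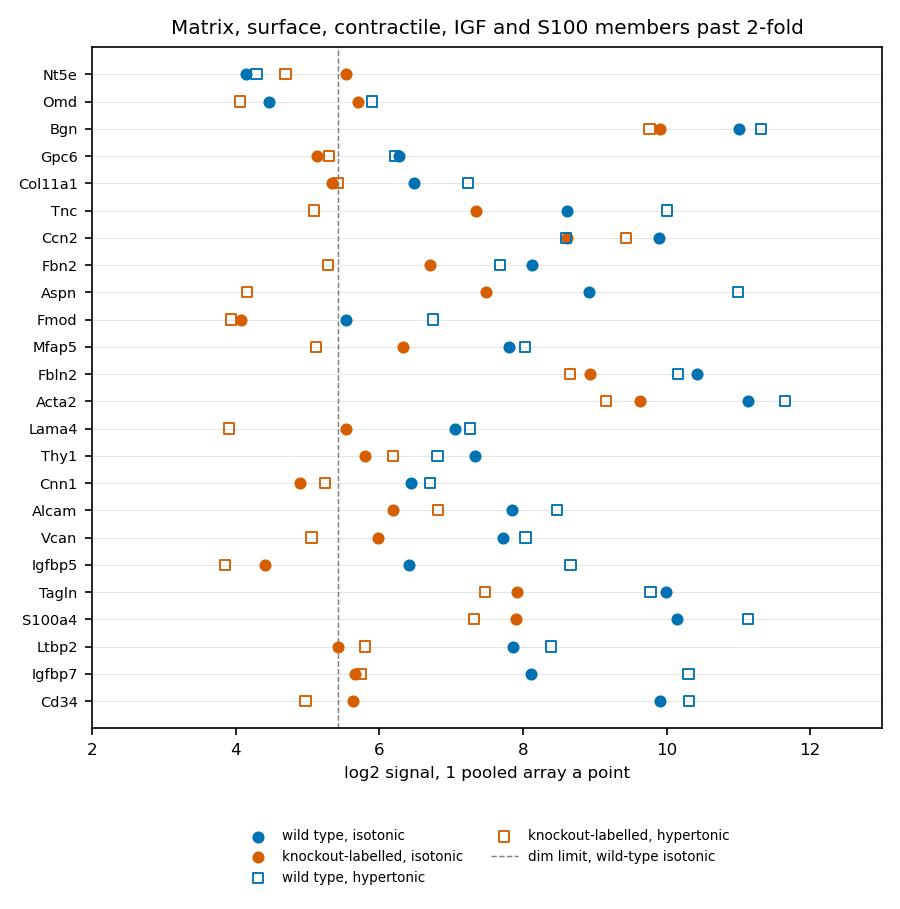
Log2 signal (x axis) of the 24 matrix, surface, contractile, IGF and S100 list members past 2-fold in isotonic medium (y axis), 1 pooled array a point; filled circles are isotonic, open squares hypertonic, blue wild type and orange knockout-labelled. Of the 24 genes only Nt5e and Omd were higher in knockout-labelled isotonic cells; for Aspn and Tnc the hypertonic squares lie farther apart than the isotonic circles.

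Signalling genes that passed 2-fold were spread over several pathways. In the TGF-beta and BMP list 3 of 20 measured genes were higher and 2 lower, 25.0% against 2.87% of all measured genes. Id3 and Id2, inhibitors of helix-loop-helix factors and targets of BMP, were higher by 2.16 and 1.19 in isotonic medium, and read 0.26 and -0.58 in the hypertonic pair. Bmp2 was higher by 1.25 from a dim wild-type signal, and the BMP antagonist gene Grem1 read 7.41 and 5.86. The receptor gene Tgfbr2 read 8.52 and 7.41. In the WNT list Sfrp2, encoding a secreted antagonist, read 7.25 and 9.24, while Wnt5a read 5.62 and 3.54 and Dkk2 6.45 and 5.21. Dusp1, a phosphatase gene that limits MAP kinases, read 9.02 and 6.84. It was the 1 of 21 measured immediate early genes past 2-fold, 4.76% against 2.87% of all measured genes. The median of that list was -0.36, with 3 members above 0. Of 10 measured retinoid genes 2 were at least 2-fold lower, 20.0% against 1.28% of all measured genes, and the median was -0.03. They were Aldh1a1, which makes retinoic acid (6.45 and 3.87), and Cyp26a1, which breaks it down (5.77 and 4.65). Both lay under the dim limit in the knockout-labelled cells. Of 12 measured chemokine and cytokine genes Cxcl5 was lower (-1.60) and Cxcl16 higher (1.03), 16.7% against 2.87% of all measured genes. Cxcl5 had a dim knockout-labelled signal (5.35), and Cxcl16 a dim wild-type signal (4.44). Of 9 measured integrin chains Itga7 was higher (1.17), 11.1% against the same 2.87%.

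Further single genes stood far from the diagonal. Stmn2, which regulates microtubules in neurons, read 6.06 in wild-type and 9.40 in knockout-labelled cells. Kitl, the ligand of the KIT receptor, read 6.11 and 8.48. The glycoprotein gene Gpnmb read 6.28 and 8.65, and the guidance receptor gene Robo1 6.14 and 8.24. The unconventional myosin gene Myo5c rested on a dim wild-type signal, 4.22 against 8.02. Piezo2, a mechanosensitive channel gene, read 5.28, below the dim limit, and 7.60, and Trpv4, a channel gene that responds to cell swelling, read 6.47 and 8.02. Gjb2, a gap junction gene, read 8.60 in wild-type isotonic cells and 5.17, 5.10 and 4.58 on the knockout-labelled isotonic, wild-type hypertonic and knockout-labelled hypertonic arrays, so that its difference rests on the wild-type isotonic array. A probe set with the provisional symbol AI506816, outside the rule for named genes and chosen after its values were seen, read 7.94 and 2.96.

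Xist had the widest difference among the lower genes. Xist, the RNA that coats the inactive X chromosome of female cells, read 8.99 in wild-type and 3.75 in knockout-labelled isotonic cells, and 9.31 and 3.16 in hypertonic cells. The Y-linked genes Eif2s3y, Kdm5d, Uty, Zfy1 and Usp9y read between 2.37 and 3.06 on both isotonic arrays, below the dim limit. The X-linked genes Kdm6a, Kdm5c and Eif2s3x, which escape inactivation, read -0.42, -0.36 and -0.31 and Ddx3x 0.08 as differences. Of the 5 measured genes among the 10 places on each side of Xist, Zdhhc15 alone passed 2-fold, 6.64 against 4.83. Sex and isolate cannot be told apart from genotype with 1 pool a side. Of 11 measured imprinted genes, which are expressed from 1 parental allele, 4 were at least 2-fold lower (36.4%, against 1.28% of all measured genes) and none higher. They were Slc38a4 (7.96 and 5.71), Peg3 (6.17 and 4.13), Plagl1 (6.81 and 5.57) and Mest (6.29 and 5.17), and Peg10 read 8.34 and 7.53. Peg3 and Mest lay under the dim limit in the knockout-labelled cells. Above 0 were 4 of the 11, among them Ndn (0.74) and Cdkn1c (0.41).

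Growth and housekeeping lists differed little. G2/M and mitosis genes had a median of 0.11 over 24 measured genes with none past 2-fold, and G1/S and DNA replication genes 0.06 over 27 with only Ccnd2 past it (10.49 and 9.23). Ribosome biogenesis genes had a median of -0.13 over 25, endoplasmic reticulum folding genes 0.01 over 18 and cholesterol synthesis genes -0.08 over 16, with none past 2-fold. The housekeeping list had a median of 0.02 over 13, and the sign of its median and of the endoplasmic reticulum list's turned with the scaling. In the p53 list the median was 0.14 over 20, with Trp53inp1 higher (7.45 and 9.03), and Cdkn2a read 9.45 and 9.37. NRF2 and glutathione genes had a median of 0.13 over 16 with none past 2-fold. Glycolysis and hypoxia genes had 0.15 over 21 with Bnip3 past it (9.12 and 10.13), and amino acid stress genes -0.08 over 22 with the arginine transporter gene Slc7a3 past it (-1.50).

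The fibroblast label held on both arrays. Of 16 fibroblast markers 13 lay above the dim limit on each isotonic array, with Vim at 12.55 and 12.72 and Twist1 at 9.77 and 10.01, while Dcn, Lum and Fap lay below it on both. Their median difference was -0.29, with S100a4 and Thy1 at least 2-fold lower. No melanocyte or cardiac marker lay above the limit on either isotonic array, and of the 10 macrophage and blood markers only Cd68 did, at 5.56 and 5.62. Of 12 endothelial markers, Egfl7 lay above it on both and Erg on the knockout-labelled array alone, 4.78 against 7.02. Mesothelial markers differed with genotype: of 7 markers 4 lay above the limit in wild-type and 2 in knockout-labelled cells, with Msln at 8.97 and 8.24 and Upk1b at 6.37 and 4.23. Of 13 neural and Schwann markers 6 lay above the limit on each array, Stmn2 higher and Tubb3 (7.51 and 5.42) and Nes (8.15 and 6.82) lower. Above the limit in wild-type and knockout-labelled cells were 5 and 3 of 14 epithelial, 2 and 2 of 12 skeletal muscle, 2 and 2 of 10 chondrocyte and osteoblast and 1 and 1 of 7 adipocyte markers. Of the pluripotency and germ cell markers Sox2 alone lay above it, and only on the knockout-labelled array (5.25 and 8.12). Pou5f1 read 3.40 and 3.46 and Nanog 4.29 and 4.10. The part of other cell types in the differences above was not tested, and in pooled RNA fewer cells of a type and less RNA per cell cannot be told apart.

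The hypertonic pair shares no array with the isotonic pair and gave a second reading of the genotype difference, in other medium and with isolates not named by the labels. In it 267 genes were at least 2-fold higher (2.57% of 10374 measured) and 667 lower (6.43%). Of the 162 isotonic higher genes 65 were also higher there, 40.1% of them and 24.3% of the 267. Of the 130 lower genes 95 were also lower there, 73.1% of them and 14.2% of the 667. None of the 130 was at least 2-fold higher in hypertonic medium, whereas 9 of the 162 were at least 2-fold lower. Across 10023 genes measured in both pairs the differences had a Pearson's r of 0.52 and a Spearman's rho of 0.37, as a description, since genes are not independent and share hybridisation and depth of signal. Among genes higher in both were, besides those above, Fgf7, a growth factor for epithelium (1.54 and 1.95), and Fhl1, a LIM protein gene (1.48 and 1.41). Among genes lower in both were Cthrc1, a secreted collagen triple helix protein gene (-2.08 and -2.40), the ephrin receptor gene Epha3 (-1.87 and -2.78) and Coch (-1.95 and -2.10).

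**Figure D5:**
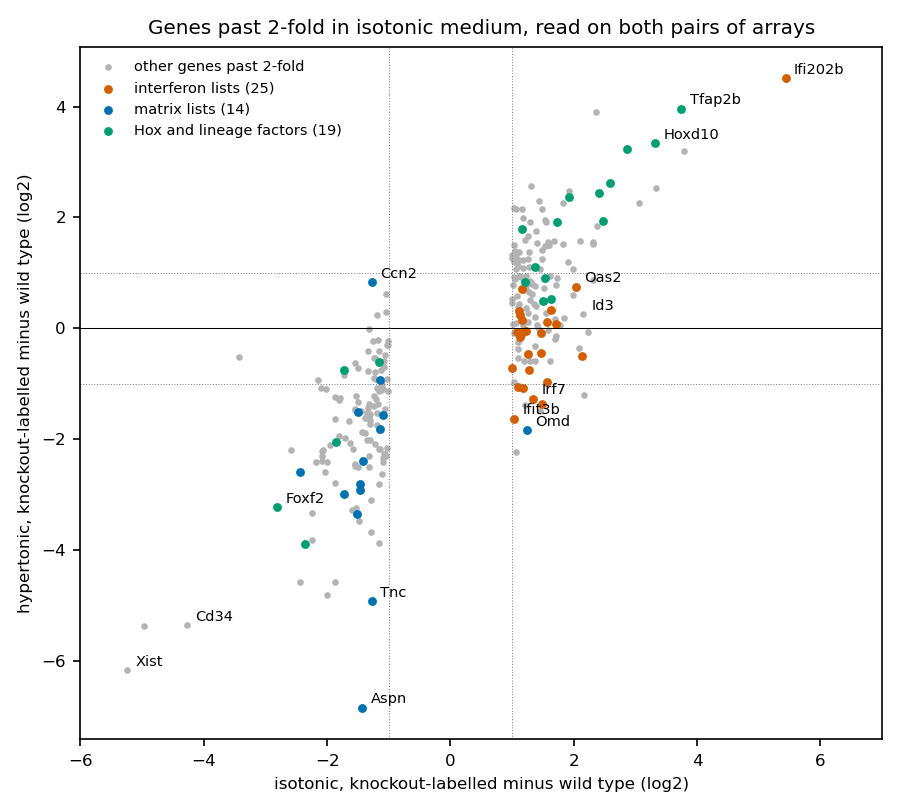
Difference between knockout-labelled and wild-type signal (log2) in isotonic medium (x axis) against hypertonic medium (y axis) for the genes past 2-fold in isotonic medium, 1 pooled array a group; dotted lines mark 2-fold. Most lower genes sit at lower left, 95 of 130 below the lower dotted line, and of the 25 interferon members 16 lie below 0 on the y axis.

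Where a counted gene had a further probe set, it usually gave the same reading. The 8 such genes were Bicc1, Bnip3, Cacna2d1, Kdm7a, Nfia, Pcdh9, Piezo2 and St3gal1. In 7 of them every probe set was past 2-fold the same way, as for Piezo2 with 1.60, 2.14 and 2.32. For St3gal1 the probe sets gave -1.72 and 0.14. The latter probe set read 4.92 in wild-type and 5.06 in knockout-labelled cells, below the dim limit on both arrays, so no difference is read from it.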

How the data were processed

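RNA of 4 pools was measured on 1 Affymetrix Mouse Gene 1.0 ST array each, and the isotonic pair was compared. The authors deposited 1 log2 signal per probe set and array; the scale was read from the values. MAS5 is named, with no version, per the submitters' processing notes; the sources used here do not name a background correction or normalization. The values were used as deposited. The number of arrays, 1 a group, limits the precision, and no p-value was computed.

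Of 35557 probe sets, 21789 had 1 gene symbol in the platform annotation, 1621 several and 12147 none; 21698 were matched through the Entrez identifier in RefSeq (GRCm38.p6). Each gene was represented by its brightest probe set, by the mean of all 4 arrays. Genes were counted at 2-fold. The text names Nfat5 and its neighbours, the widest differences among measured genes, among genes above the dim limit on both arrays and among genes past 2-fold in both media, list members past 2-fold or among the 3 widest of their list, and members of short lists, without provisional symbols. Further list members were named for their known role after their values were seen. The 39 pathway and 12 cell type lists, the members and the alternatives were chosen with earlier results of these data known, and 2 list symbols were respelled after the files were read. The counting step was tested on simulated data. Python 3.11.15, pandas 2.3.3, numpy 2.4.6, matplotlib 3.10.9, R 4.3.3 and limma 3.58.1 (quantile and cyclic loess normalization) were used.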

Additional observations from a re-analysis of the deposited data

Results flagged for a closer look

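The genotype difference had opposite signs in the media, past 2-fold in both, for 9 genes, all higher in knockout-labelled isotonic and lower in knockout-labelled hypertonic cells; the difference between media was not tested. This way of picking genes was chosen after their values were seen. Members of the interferon lists made up 5 of them. Of all 162 higher genes 25 were members of those lists. In hypertonic medium 16 of these 25 and 38 of the 162 had a difference below 0. Irf7 differed by 1.34 in isotonic and -1.26 in hypertonic medium, Trim30a by 1.49 and -1.37 and Ifit3b by 1.04 and -1.63. Gbp7 differed by 1.17 and -1.08, and Oasl2 by 1.10 and -1.06. The others of the 9 were outside the interferon lists used here. Ddx60, a helicase gene, had 1.46 and -1.49, and Lgals3bp, a secreted galectin-binding protein gene, 1.21 and -1.38. Omd, a small leucine-rich protein gene, had 1.24 and -1.84, and Enpp3, an ectoenzyme gene, 1.07 and -2.22. Ddx60, Omd and Enpp3 read below the dim limit in wild-type isotonic cells.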

How the results depend on the processing

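The counts of 162 higher and 130 lower genes stayed within 1.5 times under quantile normalization (155 and 134), cyclic loess (168 and 133), centring (152 and 139), no filter on dim genes (177 and 145) and the mean of probe sets (162 and 131). They changed to 501 and 394 at 1.5-fold, to 71 and 41 with the dim limit at the 75th percentile, which leaves 5199 genes, and to 100 and 73 with both arrays above the dim limit. Of those, 41 and 58 were also past 2-fold in the hypertonic pair, against 65 and 95; with the stricter filter on the hypertonic arrays too, 38 and 38 were. With the knockout hypertonic array in place of the isotonic one, 218 were higher and 485 lower, and 82 and 103 of the genes counted in isotonic medium were among them. Of 289 counted genes with a settled symbol, 269 were measured with that array, and 7 of those changed sign: Trim30a (-0.39), Gbp7 (-0.39), Lifr (-0.38), Fat4 (-0.0402), Ifit3b (-0.16), Bnip3 (-0.40) and Blnk (0.043). Of the 20 dim on both arrays, 4 did: Enpp3 (-1.04), Omd (-0.41), Ddx60 (-0.29) and Rnf150 (-0.077). With that array 9 list medians changed sign: IGF (0.053), immediate early (0.14), epithelial (0.20), integrins (0.075), S100 (0.021), G2/M (-0.091), glycolysis and hypoxia (-0.39), NRF2 (-0.12) and endoplasmic reticulum folding (-0.34), and the median of the interferon effectors was 0.26. Without the dim filter the medians of the lineage factors (-0.069) and of the NFAT factors (0.098) changed sign. With the dim limit at the 75th percentile those of the retinoid genes (0.22) and of endoplasmic reticulum folding (-0.082) did. The cause of these changes was not tested. Quantile normalization, loess and centring turned no counted gene with a settled symbol; of the list medians they turned those nearest 0, endoplasmic reticulum folding (-0.033, -0.039 and -0.020) and housekeeping (-0.011, -0.035 and -0.014). No paired analysis was possible because each group has 1 array and the labels give no replicate numbers.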
